A study of Ovis aries with 57 samples.

Results

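The genes described here are 8 markers of the epiblast and of pluripotent cells: NANOG, POU5F1 (which encodes OCT4), SOX2, PRDM14, SALL4, DNMT3B, LIN28A and LIN28B. They were taken by symbol from the conceptus table, where all 8 of 8 listed symbols were found among 25174 genes with an identifier. RNA had been sequenced from sheep (Ovis aries) conceptuses and from the luminal (LE) and glandular (GE) epithelium of the uterus. The conceptus groups were day 12 of pregnancy with 5 libraries, and days 14, 16 and 20 with 4 libraries each, 17 in all. A conceptus sample was whole tissue flushed from the uterine horn. The labels do not say which parts of the embryo and its membranes each library held, and they name no breed, treatment or genotype. LE and GE were cut by laser from sections of the horn, 20 libraries each over days 10, 12, 14, 16 and 20. The labels do not say how animals were spread over days, so p-values measure the spread between these libraries.

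The epiblast is the layer of the early embryo that forms the body, while the trophectoderm around it forms most of the placenta. In pluripotent cells OCT4, SOX2 and NANOG bind DNA together and keep one another's genes active. SALL4 and PRDM14 act with this core, DNMT3B adds new methyl groups to DNA, and the RNA-binding proteins LIN28A and LIN28B block the maturation of let-7 microRNAs, which otherwise restrain growth genes. In sheep and cattle the blastocyst elongates into a filament by growth of its trophectoderm before it attaches, while the embryonic disc is a small part of the whole and enters gastrulation. In such whole tissue, fewer cells of a type and less RNA per cell cannot be told apart.

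Levels are given as RPKM, which is reads on the exons of a gene scaled by exon length and by the mapped reads of the library, and which can be set side by side between genes. Mapped reads, recovered from the steps of the RPKM values, ranged from 14617918 to 27383539 per library. Per the protocols, RNA of day 12 was amplified before library preparation and RNA of later days was not, while the sample labels describe all conceptus RNA alike as depleted of ribosomal RNA. On day 12, 28.8 to 34.9% of mapped reads lay on exons, against 69.6 to 76.4% on later days, so amplification and day cannot be told apart in any step from day 12. The median gene was 0.94 higher on day 14 than on day 12 on the log2(RPKM + 1) scale, and 0.19 higher after RPKM was rescaled by TMM factors, and each change over that step is read against this shift. Cell type markers moved with day 12 as well: the 8 measured uterine epithelium markers summed to 69.6 to 195 RPKM on day 12 and 13.7 to 21.3 on day 14. ESR1, the oestrogen receptor of that list, was at 18.8 ± 5.97 RPKM (SD, n = 5) on day 12 and 0.105 ± 0.0346 (n = 4) on day 14, and no marker of the list was at 0 in all libraries of a day. The 8 measured trophectoderm markers summed to 216 to 503 RPKM on day 12 and to 932 to 3279 on later days, with none at 0 in all libraries of a day. The part of either list in the results for the 8 genes was not tested.

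A pair of libraries stood apart. In day 16 replicate 4, 9 of 10 mesenchyme markers and 11 of 12 endoderm markers had their lowest value of the day, and the mesenchyme list summed to 12.6 RPKM against 395 to 1643 in the other day 16 libraries. The mesoderm genes T and HAND2 were at 0 there, and the yolk sac product AFP was at 1.65 RPKM against 197 to 632. In day 20 replicate 1, 9 of 11 neural markers and 9 of 11 detected streak and mesoderm markers had their highest value of the day, with NES, an intermediate filament of neural precursors, at 17.4 RPKM against 0.14 to 1.15 in the others. T, HAND2, AFP and NES were picked out after their values had been seen. Results that rest on either library are given with and without it.

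**Figure D1:**
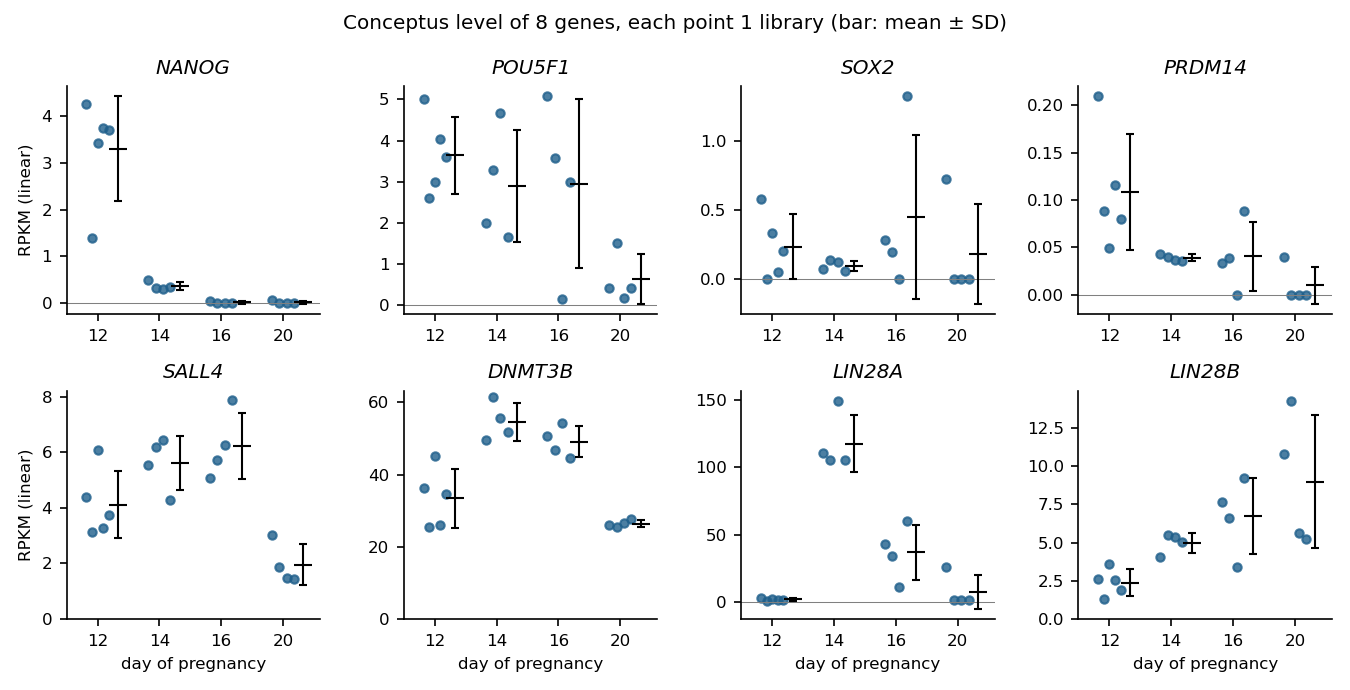
Level of each of the 8 genes in the conceptus by day of pregnancy (RPKM, linear axes). Each point is 1 library, and the bar beside the points is the mean ± SD over 5 libraries on day 12 and 4 on later days. NANOG is high on day 12 alone, LIN28A peaks at 105 to 149 RPKM on day 14, and SALL4 and DNMT3B are lowest on day 20 among the later days.

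The order of the 8 genes changed between days, as the plot of levels by library shows. On day 12 DNMT3B stood highest at 33.5 ± 8.17 RPKM (SD, n = 5), at the 95.6th percentile of detected genes. SALL4, POU5F1, NANOG, LIN28B and LIN28A followed at means of 4.12, 3.65, 3.31, 2.39 and 2.08 RPKM, and each of these overlapped its neighbour in range. SOX2 and PRDM14 were below 1 RPKM on every day by their means. On day 14 LIN28A led at 118 ± 21.1 RPKM (n = 4), above DNMT3B in every library, while NANOG had dropped to the sixth place. On day 20 DNMT3B led again, at the 85.1th percentile, followed by LIN28B, LIN28A and SALL4, whose ranges overlapped from neighbour to neighbour.

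NANOG, the homeobox factor that marks the epiblast proper, was found almost only on day 12. Its day 12 libraries held 4.27, 1.39, 3.43, 3.76 and 3.70 RPKM, from 29 to 85 reads each. The day 14 libraries held 0.494, 0.327, 0.296 and 0.348 RPKM, from 5 to 7 reads each. Every day 12 library was above every day 14 library, and on days 16 and 20 the gene had 1 read in 1 of 4 libraries each and none in the others, where 3 reads, the most that a count of 0 allows, would be 0.191 to 0.227 RPKM. The fall from day 12 to day 14 was 1.61 on the log2(RPKM + 1) scale (SE 0.176, limma adjusted p = 1.7e-07), a scale that understates the change of low genes. In pooled reads per mapped read the day 12 level was 9.02 times that of day 14, with an exact 95% interval of 5.91 to 14.4 for counting error only. With RPKM rescaled by TMM factors the fall was 2.48 (limma adjusted p = 2e-09). NANOG passed the filter on low values only through its day 12 libraries. It was left out of the test on later days for low counts. With no filter on counts its change from day 14 to day 16 was -4.34 on the log2 scale (SE 0.878, edgeR adjusted p = 0.0019), from 23 reads over 4 libraries to 1 read.

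POU5F1 was still found at several RPKM in most libraries of days 14 and 16. The 5 day 12 libraries held 5.00, 2.60, 3.00, 4.05 and 3.59 RPKM, and the day 14 libraries 2.01, 3.28, 4.66 and 1.65. On day 16 the values were 5.07, 3.57, 0.164 and 3.00 RPKM, and on day 20 they were 0.431, 1.52, 0.166 and 0.426. The day 12, 14 and 16 groups overlapped, and day 20 was below all other libraries except day 16 replicate 4, which had 3 reads where its neighbours had 50 to 110. From day 12 to day 14 the change was -0.30 (SE 0.376, limma adjusted p = 0.49), but with rescaled RPKM the gene fell by 1.27 (limma adjusted p = 0.0021). Over the next step, to day 16, it was -0.36 (SE 0.739, edgeR adjusted p = 0.69). From day 16 to day 20 POU5F1 fell by 2.21 (SE 0.813, edgeR adjusted p = 0.047), and by 2.61 (adjusted p = 0.0058) without day 16 replicate 4. The call was also kept without day 20 replicate 3, but lost without any other library of these days, with changes of -2.23 to -1.81 and edgeR adjusted p of 0.064 to 0.12. The fall from day 14 to day 20 was 2.57 (SE 0.820, edgeR adjusted p = 0.014) and passed in each of the 8 fits with 1 library left out (adjusted p up to 0.041). POU5F1 and NANOG have processed copies elsewhere in the human genome, and whether reads were shared with copies in sheep was not tested.

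SOX2, the HMG-box partner of OCT4 that also marks neural precursors, was low in the conceptus libraries. Its day 12 libraries held 0.584, 0, 0.331, 0.0482 and 0.200 RPKM, and its day 14 libraries 0.0724, 0.134, 0.122 and 0.0595, from 1 or 2 reads each. On day 16 the values were 0.283, 0.196, 0 and 1.33 RPKM, and on day 20 replicate 1 had 0.727 RPKM from 11 reads while the other 3 had none. The libraries with most SOX2 on days 16 and 20 were also those with the highest neural list sums of their day, 8.99 and 27.9 RPKM. On day 16 this was not particular to neural markers. That library, replicate 5, was also highest of its day for 9 of 10 mesenchyme and 8 of 12 endoderm markers. Of its neural sum, NES held 5.17 RPKM and NCAM1 2.71. Without day 20 replicate 1 no read of SOX2 was left on that day. SOX2 did not pass either filter on low values. Pooled reads per mapped read on day 14 were 0.229 times those of day 16 (exact 95% interval 0.0770 to 0.568, counting error only), and 18 of the 26 reads of day 16 came from replicate 5.

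The ratio of SOX2 to POU5F1 was taken within each library, but in the 5 libraries with no read of SOX2 it is set by POU5F1 and by the amount added to each gene. On the log2 scale with 0.1 RPKM added to each, it averaged -3.78 ± 0.959 (SD, n = 5) on day 12, -3.83 ± 0.425 (n = 4) on day 14, -2.48 ± 1.41 (n = 4) on day 16 and -1.79 ± 1.95 (n = 4) on day 20. None of the 3 steps passed an exact two-sided permutation test (p = 0.94, 0.20 and 0.66, the first with 5 against 4 libraries). SOX2 was above POU5F1 in 1 library alone, day 20 replicate 1, at 1.69 times, and without it the last step was -0.13 in place of 0.68. With 0.01 RPKM added in place of 0.1 the step from day 14 to day 16 was 1.33 (exact permutation adjusted p = 0.043, n = 4 against 4), with replicate 4 of day 16 holding no read of SOX2, and the last step was -0.64.

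PRDM14, a zinc finger repressor that guards pluripotency and founds germ cells in the mouse, stayed at the edge of detection. Its highest value was 0.210 RPKM in day 12 replicate 1, from 6 reads. The day 12 libraries had 2 to 6 reads, the day 14 libraries 1 each, and on day 20 only replicate 1 had a read. Its pooled level on day 12 was 2.70 times that on day 14, with an exact 95% interval of 0.882 to 11.1 that covers counting error only and includes 1. No change of this gene was detectable at this depth with the filters used.

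SALL4, a zinc finger factor of the stem cell core, was lower on day 20 than on days 14 and 16. Its libraries held 4.39, 3.13, 6.07, 3.26 and 3.73 RPKM on day 12 and 5.53, 6.21, 6.46 and 4.27 on day 14. They held 5.07, 5.72, 6.25 and 7.88 RPKM on day 16 and 3.04, 1.86, 1.49 and 1.43 on day 20. Every day 20 library was below every library of days 14 and 16, and day 16 replicate 4, at 6.25 RPKM, did not stand apart for this gene. SALL4 fell by 1.64 from day 16 to day 20 (SE 0.228, edgeR adjusted p = 0.00031) and by 1.90 from day 14 to day 20 (SE 0.230, edgeR adjusted p = 1.9e-05). The change between days 14 and 16 was -0.26 (SE 0.219, edgeR adjusted p = 0.33). From day 12 to day 14 it was 0.39 (SE 0.183, limma adjusted p = 0.064) on RPKM as deposited and -0.62 (limma adjusted p = 0.0017) on rescaled RPKM, so the direction of that step depends on the scaling.

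DNMT3B was the most even between replicates of the members other than SOX2 and PRDM14, which had few reads. On day 12 it held 36.3, 25.4, 45.2, 26.1 and 34.5 RPKM, and on day 14 it held 49.5, 61.4, 55.6 and 51.9. On day 16 the values were 50.8, 46.7, 54.4 and 44.6 RPKM, and on day 20 they were 26.0, 25.5, 26.5 and 27.7, a spread of 1.08 times. The day 20 libraries lay far below those of days 14 and 16 with no overlap. DNMT3B fell by 0.55 from day 14 to day 16 (SE 0.096, edgeR adjusted p = 0.00063), by 0.86 from day 16 to day 20 (SE 0.0966, edgeR adjusted p = 9.5e-05) and by 1.41 from day 14 to day 20 (SE 0.0977, edgeR adjusted p = 4.3e-07). The first of these is larger than the means of 54.6 and 49.1 RPKM imply, since TMM scaling factors were 0.784 to 0.826 on day 14 and 1.08 to 1.17 later. With limma on unscaled RPKM that step was -0.15 (adjusted p = 0.42). From day 12 to day 14 the gene rose by 0.72 (SE 0.140, limma adjusted p = 0.00016), less than the median gene, and with rescaled RPKM it fell by 0.45 (limma adjusted p = 0.0018).

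**Figure D2:**
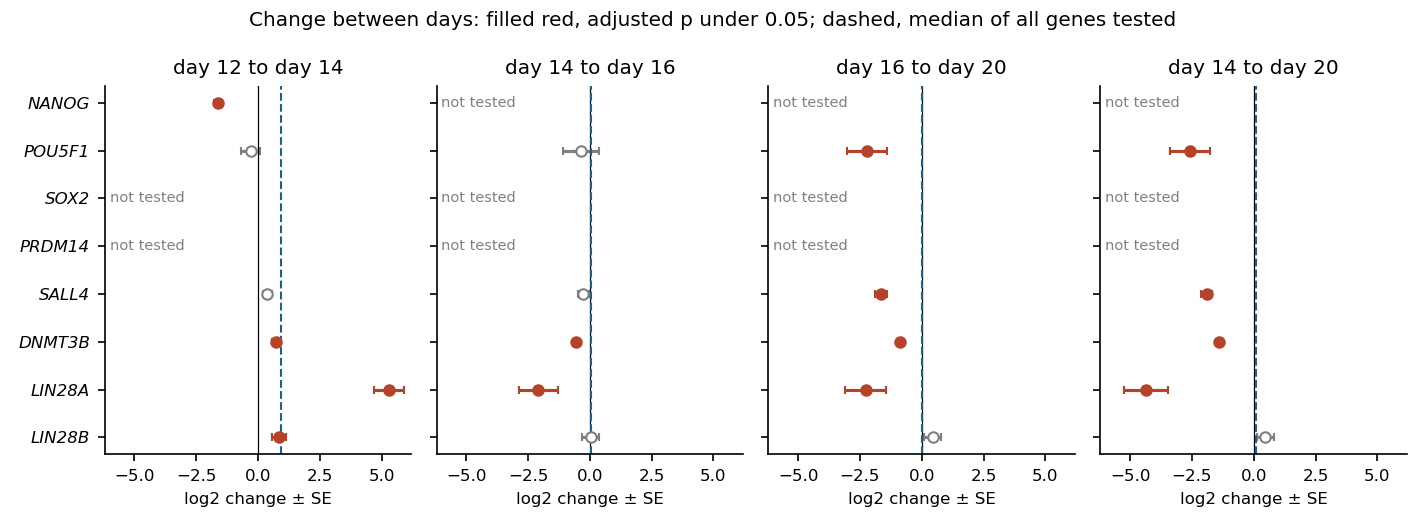
Change of each gene between days (log2 scale, point ± SE), from limma on log2(RPKM + 1) for day 12 to day 14 and from edgeR on gene reads for the other 3 comparisons. Filled red points have an adjusted p under 0.05, open grey points do not, and the dashed line is the median of all genes tested, 0.94 in the first panel and near 0 in the others. Of the genes tested, LIN28A has the largest change in each panel, and in the third POU5F1 and LIN28A lie close together at -2.21 and -2.27.

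LIN28A was low on day 12, high on day 14 and lower again later. On day 12 it held 3.27, 1.06, 2.61, 1.73 and 1.72 RPKM, from 15 to 44 exon reads per library. On day 14 it held 110.3, 105.7, 149 and 105.4 RPKM, from 1062 to 1709 reads, so that no day 14 library came near the day 12 range. On day 16 the values were 42.9, 34.4, 11.1 and 60.1 RPKM, all below day 14, with the lowest in replicate 4. On day 20 replicate 1 held 26.4 RPKM and the others 1.33, 1.56 and 1.31.

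From day 12 to day 14 LIN28A rose by 5.30 (SE 0.596, limma adjusted p = 2.3e-07), against 0.94 for the median gene, and by 4.39 (limma adjusted p = 1.3e-06) with rescaled RPKM. Deposited gene reads of day 12 also cover sequence outside exons, and on them the rise was 2.12 (edgeR adjusted p = 0.0064). LIN28A then fell by 2.08 from day 14 to day 16 (SE 0.791, edgeR adjusted p = 0.042) and by 2.27 from day 16 to day 20 (SE 0.834, edgeR adjusted p = 0.047). Both steps lie near the threshold. The first call was lost without any library but day 16 replicate 5 (changes of -2.17 to -1.78, edgeR adjusted p of 0.064 to 0.087), in 7 of 8 fits. The second was lost in 6 of 8 fits, those without any library but day 16 replicate 4 or day 20 replicate 1 (changes of -2.30 to -1.92, edgeR adjusted p of 0.076 to 0.097). Without day 20 replicate 1 the fall from day 16 to day 20 was 4.65 (edgeR adjusted p = 0.00023), and without day 16 replicate 4 it was 2.57 (adjusted p = 0.028). Without both, the falls were 1.78 (edgeR adjusted p = 7.8e-05) and 4.95 (adjusted p = 1.3e-05). Over both steps, from day 14 to day 20, the gene fell by 4.34 (SE 0.889, edgeR adjusted p = 0.00094), and by 6.73 (adjusted p = 3.8e-06) without day 20 replicate 1.

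LIN28B did not follow its paralog. It held 2.60, 1.31, 3.61, 2.53 and 1.90 RPKM on day 12 and 4.06, 5.50, 5.36 and 5.03 on day 14. On day 16 it held 7.66, 6.64, 3.41 and 9.26 RPKM and on day 20 it held 10.8, 14.3, 5.62 and 5.23. The means of each day were higher than those of the day before, at 2.39, 4.99, 6.74 and 8.99 RPKM, but neighbouring days overlapped after day 14. LIN28B rose by 0.85 from day 12 to day 14 (SE 0.277, limma adjusted p = 0.0097), which is below the median gene, and with rescaled RPKM the change was -0.06 (limma adjusted p = 0.84). With TMM scaling the change was 0.03 from day 14 to day 16 (SE 0.342, edgeR adjusted p = 0.95), where the unscaled means rose. From day 16 to day 20 it was 0.44 (SE 0.339, edgeR adjusted p = 0.32). The change from day 14 to day 20 was 0.47 (SE 0.341, edgeR adjusted p = 0.23), with an approximate 95% interval of -0.20 to 1.14.

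The ratio of LIN28A to LIN28B was near 1 on day 12, far above it on day 14 and lower on each later day. On day 12 the log2 ratio, with 0.1 RPKM added to each, averaged -0.22 ± 0.335 (SD, n = 5), and LIN28B was the higher of the pair in 4 of 5 libraries. On day 14 it was 4.53 ± 0.265 (n = 4), with LIN28A at 19.2 to 27.8 times LIN28B. On day 16 it was 2.30 ± 0.438 (n = 4) and on day 20 it was -1.44 ± 1.94 (n = 4). The 3 steps were 4.74 (exact two-sided permutation p = 0.016, n = 5 against 4), -2.23 (exact p = 0.029, n = 4 against 4) and -3.73 (exact p = 0.029, n = 4 against 4). Each is the smallest p that its group sizes allow, and after adjustment over the 6 ratio tests all 3 were at 0.057, above the threshold. Day 20 replicate 1 kept a ratio of 2.43, while the other day 20 libraries were at 0.0934, 0.277 and 0.251. Without that library the last step was -4.64 in place of -3.73, and without day 20 replicate 3 it was -3.10 (exact permutation adjusted p = 0.11 for each, n = 4 against 3).

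**Figure D3:**
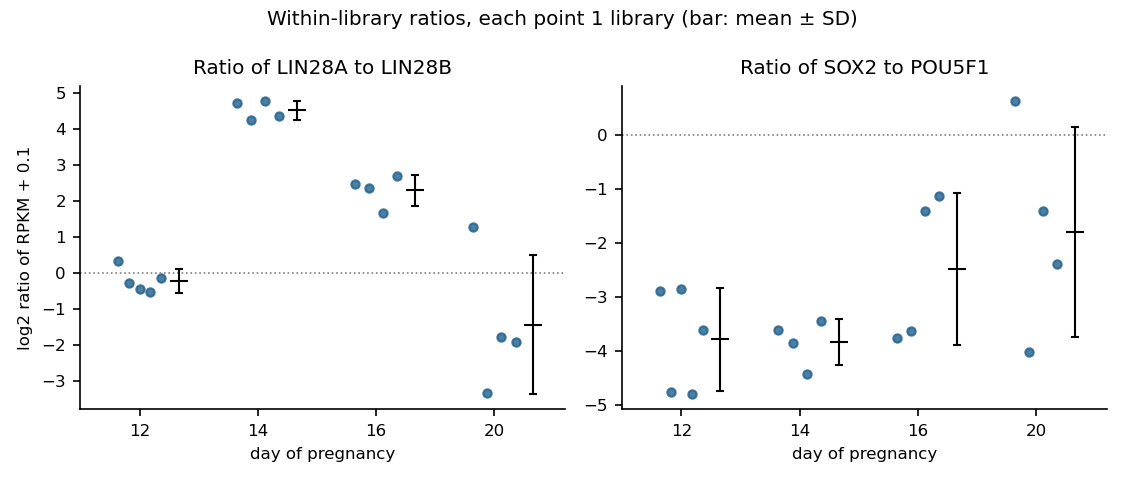
Log2 ratio of LIN28A to LIN28B (left) and of SOX2 to POU5F1 (right) within each conceptus library, with 0.1 RPKM added to each gene, by day of pregnancy. Points are libraries, bars the mean ± SD, and the dotted line is an equal level of both genes. The left panel goes from about equal on day 12 to 4.53 on day 14 and down to -1.44 on day 20, and the right panel shows wide overlap between days.

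Read together, 6 of the 8 genes entered the test from day 12 to day 14, and 3 rose and 1 fell, where 65.7% and 12% of all 12081 genes tested rose and fell, 77.7% in all. The median of the 6 was 0.55, below the 0.94 of all genes. With rescaled RPKM 1 rose and 4 fell, beside 43.9% and 32.1% of all genes, 76% together. NANOG entered through its day 12 libraries alone, so a gene of its level could be tested only where the days differed. LIN28A upwards and NANOG downwards were the pair of members that kept their direction and their call under the other scaling. On later days 5 genes had enough counts. Between days 14 and 16, 2 of them fell beside 26.5% of all 13202 genes, and none rose beside 28.1% (54.6% called in all). Between days 16 and 20, 4 fell beside 20.5% and none rose beside 20.6% (41.1% in all). Between days 14 and 20, 4 fell beside 32.9% and none rose beside 37.1% (70.1% in all). Their median change from day 14 to day 20 was -1.90, beside 0.09 for all genes tested. The 3 comparisons of later days share libraries, and all counts were the same without both libraries that stood apart. With 1 library left out in turn the count that fell from day 14 to day 20 stayed at 4. From day 14 to day 16 it was 1 without any library but day 16 replicate 5. From day 16 to day 20 it was 2 without day 16 replicates 1, 2 or 5 or day 20 replicates 4 or 5, and 3 without day 20 replicates 1 or 3.

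In the authors' deposited table of their own test LIN28A and NANOG also led from day 12 to day 14, but other members differed. LIN28A stood there at a fold change of 24.3 from day 12 to day 14 (FDR p-value 1.1e-12), and NANOG at -15.6 (FDR p-value 3.2e-05), where a minus sign marks a fall. The authors' deposited table gave LIN28A fold changes of -4.27 and -4.97 for the next 2 steps (FDR p-values 0.0019 and 0.0022), and DNMT3B -1.48 and -1.87 (FDR p-values 0.024 and 0.00038). POU5F1 stood at -2.78 from day 12 to day 14 in the authors' deposited table (FDR p-value 0.035). LIN28B and DNMT3B, which rose over that step by limma on RPKM as deposited, stood at -1.09 and -1.39 there. Neither passed in the authors' test (FDR p-value 0.060 for DNMT3B). SALL4, at -3.04 from day 16 to day 20, had an FDR p-value of 0.056 in the authors' deposited table, and POU5F1, at -3.92 over that step, one of 0.19.

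Genes around LIN28 were drawn from a list of 16 partners, regulators and targets of the let-7 pathway, of which 14 were measured. From day 12 to day 14, 8 of the 14 rose and 3 fell. With rescaled RPKM 6 rose and 6 fell, beside 43.9% and 32.1% of all genes. From day 14 to day 20, 5 rose and 7 fell. The list's median changes were 0.99 and -0.39, beside 0.94 and 0.09 for all genes tested, of which 65.7% rose and 12% fell over the first step and 37.1% rose and 32.9% fell over the second. Targets of let-7 went both ways from day 12 to day 14. MYC, picked out after its value had been seen, fell by 0.64 (SE 0.239, limma adjusted p = 0.022). The 4 targets with the smallest adjusted p rose, while ZCCHC6, given below, ranked ahead of the last of them in the whole list and fell. HMGA1, a chromatin protein, went from 2.07 ± 0.916 RPKM (SD, n = 5) on day 12 to 43.1 ± 9.49 (n = 4) on day 14, a rise of 3.88 (SE 0.214, limma adjusted p = 1.5e-11). MYCN, a growth-promoting transcription factor, went from 0.521 ± 0.139 to 19.5 ± 6.07 RPKM, a rise of 3.71 (SE 0.200, limma adjusted p = 1.1e-11). ARID3A, at 3.13 and 48.1 RPKM, rose by 3.60 (SE 0.145, limma adjusted p = 2.6e-13), and IGF2BP1, an mRNA-binding protein, rose by 2.28 (SE 0.179, limma adjusted p = 1.8e-09). Those 4 rises kept direction and call with rescaled RPKM, on exon reads and on gene reads.

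On later days part of the list went down with LIN28A. TRIM71, the mammalian counterpart of worm lin-41 and a let-7 target, stood at 8.43 ± 1.27, 5.75 ± 0.610 and 2.88 ± 0.607 RPKM (n = 4 each) on days 14, 16 and 20. It fell by 0.96 from day 14 to day 16 (SE 0.170, edgeR adjusted p = 0.00073) and by 1.91 from day 14 to day 20 (SE 0.176, edgeR adjusted p = 2.6e-06). Its rise of 1.50 from day 12 to day 14 (SE 0.180, limma adjusted p = 5.5e-07) turned to -1.57 on gene reads, which on day 12 include reads outside exons. MYCN fell by 1.71 (SE 0.282, edgeR adjusted p = 0.0002) and IGF2BP1 by 0.89 (SE 0.120, edgeR adjusted p = 4.2e-05) from day 14 to day 20. ARID3A lay between 40.8 and 54.4 RPKM in all 12 later libraries and fell by 0.44 from day 14 to day 20 (SE 0.0874, edgeR adjusted p = 0.00076). ZCCHC6, a terminal uridylyl transferase that tags let-7 precursors, ran the other way: it fell by 1.41 from day 12 to day 14 (SE 0.109, limma adjusted p = 1.6e-09) and rose by 0.77 from day 14 to day 20 (SE 0.097, edgeR adjusted p = 2.6e-05). DICER1, which cuts the precursors, fell by 1.51 from day 14 to day 16 (SE 0.239, edgeR adjusted p = 0.00033). The let-7 microRNAs themselves were not measured in these tables.

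**Figure D4:**
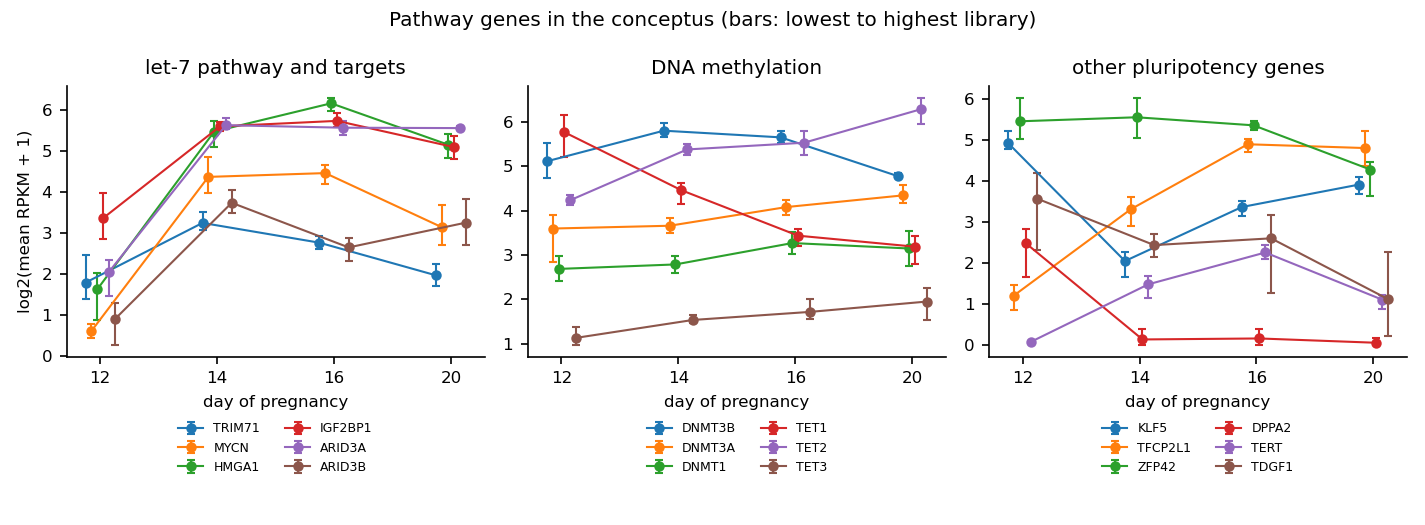
Genes around the 8 members by day of pregnancy, as log2 of the mean RPKM + 1 per day. Points are means of 5 libraries on day 12 and 4 on later days, and bars run from the lowest to the highest library. HMGA1, MYCN, ARID3A and IGF2BP1 climb between days 12 and 14 (left), TET1 descends while TET2 climbs (middle), and DPPA2 is near 0 after day 12 (right).

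Beside DNMT3B, 12 of 13 other genes of DNA methylation and its readers were measured. Of the 11 tested, 8 rose and 1 fell from day 12 to day 14, with a median of 1.34 beside 0.94 for all genes. The share that rose is near the 65.7% of all genes, of which 12% fell. With rescaled RPKM 5 rose and 4 fell, beside 43.9% and 32.1% of all genes. From day 14 to day 20, 4 rose and 2 fell, beside 37.1% and 32.9% of all genes, with a median of 0.14 beside 0.09. TET1, which oxidises methylated cytosine and is a mark of mouse pluripotent cells, held 53.3 ± 14.1 RPKM (SD, n = 5) on day 12, 21.0 ± 3.19 (n = 4) on day 14, 9.82 ± 1.28 on day 16 and 8.11 ± 1.91 on day 20. Days 12, 14 and 16 did not overlap, and TET1 fell by 1.28 from day 12 to day 14 (SE 0.186, limma adjusted p = 5.8e-06) and by 1.49 from day 14 to day 16 (SE 0.183, edgeR adjusted p = 6.7e-05). TET2, an enzyme of the same family, held 17.8 ± 1.25, 40.5 ± 3.33, 45.1 ± 7.29 and 76.7 ± 13.7 RPKM on the 4 days and rose by 0.80 from day 16 to day 20 (SE 0.151, edgeR adjusted p = 0.0018). Its rise of 1.14 from day 12 to day 14 (SE 0.127, limma adjusted p = 2.1e-07) was -0.01 with rescaled RPKM. MBD2, a reader of methylated DNA, rose by 1.08 from day 14 to day 20 (SE 0.113, edgeR adjusted p = 6.5e-06), and MBD3 fell by 0.94 (SE 0.118, edgeR adjusted p = 2.6e-05). DNMT3A, the other enzyme for new methylation, and DNMT1, which copies existing marks, were picked out after their values had been seen. On day 20 DNMT3A stood at 19.3 ± 2.75 RPKM beside 26.4 ± 0.929 for DNMT3B (n = 4 each), where on day 14 they had been at 11.6 ± 1.49 and 54.6 ± 5.18, and DNMT1 held 5.91 ± 0.798 and 7.86 ± 2.45 RPKM on days 14 and 20.

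Other genes tied to pluripotency moved in both directions. Of 33 listed, 27 were measured and 14 tested, and from day 12 to day 14, 5 rose and 6 fell, while from day 14 to day 20, 4 rose and 3 fell. The medians were 0.33 and 0.06, beside 0.94 and 0.09 for all genes, of which 65.7% rose and 12% fell over the first step and 37.1% rose and 32.9% fell over the second. With rescaled RPKM 4 rose and 7 fell over the first step, beside 43.9% and 32.1%. From day 16 to day 20, 3 fell, beside 20.5% of all genes. Without both libraries that stood apart 7 fell over that step, where 2215 of all 13310 genes tested fell. DPPA2, a chromatin factor of early embryos, resembled NANOG: it held 4.57 ± 1.71 RPKM (SD, n = 5) on day 12 and 0.0908 ± 0.147 (n = 4) on day 14, a fall of 2.30 (SE 0.200, limma adjusted p = 7.8e-09). Like NANOG, it passed the filter through day 12 alone. KLF5, a zinc finger factor of blastocysts, fell by 2.89 over the same step (SE 0.139, limma adjusted p = 2.4e-12) and then rose by 1.80 from day 14 to day 20 (SE 0.175, edgeR adjusted p = 3.6e-06). ZFP42 (REX1) was at 42.7 ± 12.1, 45.7 ± 13.3 and 39.8 ± 2.96 RPKM on days 12 to 16 and at 18.3 ± 4.61 on day 20. It fell by 0.59 from day 14 to day 16 (SE 0.205, edgeR adjusted p = 0.028), but that call was lost in 4 of 8 fits with 1 library left out. From day 14 to day 20 it fell by 1.69 (SE 0.211, edgeR adjusted p = 2.5e-05). TFCP2L1, a factor of naive stem cells in the mouse, rose instead, by 2.09 from day 12 to day 14 (SE 0.192, limma adjusted p = 1.5e-08) and by 1.29 from day 14 to day 16 (SE 0.232, edgeR adjusted p = 0.00079). TERT, the catalytic part of telomerase, held 0.0523, 1.77, 3.75 and 1.14 RPKM on the 4 days and fell by 1.68 from day 16 to day 20 (SE 0.225, edgeR adjusted p = 0.00025). NODAL, OTX2, FGF5 and UTF1, textbook genes of the epiblast named after their values had been seen, had means below 1 RPKM on each day. Not all such genes were low. TDGF1, also named after its values had been seen, held 7.89, 3.77, 7.07 and 1.40 RPKM on day 16 and 0.148 to 3.81 on day 20. The 7.07 was in replicate 4. GDF3, named in the same way, fell by 0.93 from day 12 to day 14 (SE 0.214, limma adjusted p = 0.0007).

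Markers of the cell types that arise from the epiblast were checked for the same libraries. In the germ cell list, 5 of 10 genes were tested from day 12 to day 14, and 4 rose and 1 fell, beside 65.7% and 12% of all genes. On later days 6 were tested, and none rose and 2 fell from day 14 to day 20, beside 37.1% and 32.9% of all genes. The count that fell was 1 without any library of these days but day 14 replicate 3 or day 20 replicate 4. TFAP2C, a factor shared by germ cells and trophectoderm, rose by 3.40 from day 12 to day 14 (SE 0.211, limma adjusted p = 7.3e-11) and fell by 0.89 from day 14 to day 20 (SE 0.194, edgeR adjusted p = 0.0014). The germ cell gene NANOS3 was at 0 in all libraries of days 12, 14 and 20 and had 1 read in day 16 replicate 5. DAZL was at 0 in all day 20 libraries and had 1 read each in day 16 replicates 2 and 4. Both were picked out after their values had been seen. Other germ cell genes, also picked out in this way, were found. On days 16 and 20 DDX4 was at 0.530 to 2.51 RPKM, KIT at 0.698 to 5.40 and DND1 at 0.611 to 1.69. From day 12 to day 14 DDX4 rose by 0.88 (SE 0.254, limma adjusted p = 0.0044), and KIT fell by 1.02 (SE 0.336, limma adjusted p = 0.01). The 12 measured streak and mesoderm genes summed to 1.80 to 2.89 RPKM on day 14, 0.793 to 34.02 on day 16 and 32.0 to 119 on day 20. Most of each day 20 sum was the vessel gene KDR, at 29.1 to 113 RPKM. The streak gene T was at 0 to 1.41 RPKM on day 16 and 0 to 0.175 on day 20, while FOXF1 was at 0.0954 to 7.65 and 2.22 to 6.10. T and FOXF1 were picked out after their values had been seen. EOMES, which acts in both streak and trophoblast, fell by 3.42 from day 14 to day 20 (SE 0.548, edgeR adjusted p = 0.00016), from 12 to 17 reads a library to 1 or 2, and passed the count filter through day 14 alone, while KDR, a receptor of vessel precursors, rose by 5.69 (SE 0.922, edgeR adjusted p = 0.00017). The 10 mesenchyme genes summed to 25.6 to 78.5 RPKM on day 14, 12.6 to 1643 on day 16 and 4340 to 14596 on day 20, and all 9 that were tested rose from day 14 to day 20. So did all 6 tested uterine epithelium markers, whose 8 measured members summed to 129 to 235 RPKM on day 20, and all 4 tested immune markers, while 4 of 8 trophectoderm markers fell and 2 rose. Some of these risers passed the count filter only through day 20, so they could be tested only where they were high. They include the uterine marker GRP, with 0 or 1 reads per library on day 16 and 12 to 65 on day 20. The immune marker CSF1R, with 1 to 6 and 34 to 122 reads, is another. In the mesenchyme and uterine lists no marker was at 0 in all libraries of a day. The part of these cell types in the falls of LIN28A, SALL4, POU5F1 and DNMT3B was not tested.

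**Figure D5:**
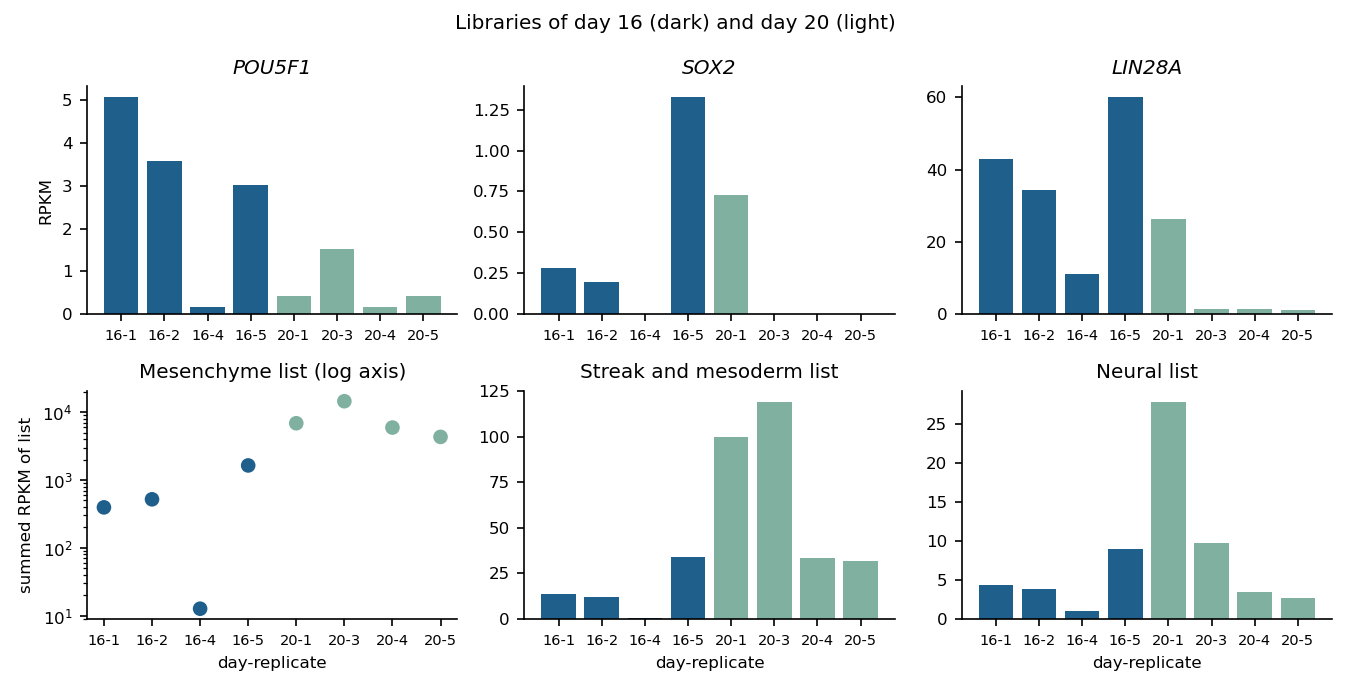
POU5F1, SOX2 and LIN28A (top, RPKM, bars from 0) and the summed RPKM of the mesenchyme list (log axis), the streak and mesoderm list and the neural list (bottom) in each library of day 16 (dark) and day 20 (light), named by day and replicate. Day 16 replicate 4 is lowest of its day in all 6 panels, and day 20 replicate 1 is highest of its day for SOX2, LIN28A and the neural list. Most of each streak and mesoderm sum on day 20 is KDR.

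Day 16 replicate 4 held the lowest value of its day for 5 of the 8 genes, with POU5F1 at 0.164 RPKM, LIN28A at 11.1 and LIN28B at 3.41, but it held 54.4 RPKM of DNMT3B, the highest of the day. Day 20 replicate 1 held the highest value of its day for 5 of the 8, with 26.4 RPKM of LIN28A and 3.04 of SALL4, while its POU5F1, 0.431 RPKM, was within the range of the others. For NANOG and PRDM14, which are among these 5, it was highest by 1 read against none. Over all genes with a mean of 1 RPKM or more, 28.9% were lowest and 33.7% highest in day 16 replicate 4, 33.7% were highest in day 16 replicate 5 and 32% were highest in day 20 replicate 1. Day 16 replicate 5 was the opposite of replicate 4 in part: it held the highest value of its day for 5 of the 8 genes and for 10 of 11 detected streak and mesoderm markers.

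In the uterine epithelium the members were nearly absent with 1 exception. DNMT3B had a median of 3.06 RPKM in LE (0.08 to 6.24, 20 libraries) and of 1.72 in GE (0.06 to 4.04, 20 libraries), far below the conceptus range of 25.4 to 61.4. The other 7 genes did not reach 1 RPKM in any of the 40 libraries of LE and GE. Their highest values were 0.70 for POU5F1, 0.42 for LIN28A and 0.29 for SALL4, all in GE. LE and GE RNA was amplified, as day 12 conceptus RNA was, so no test was made between tissues.

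The genes with the most similar pattern were found by the correlation of log2(RPKM + 1) over the 17 conceptus libraries among 10728 genes. The points share library, depth and amplification, and the values carry no test. For LIN28A they were PKM (r = 0.956), a glycolytic enzyme that went from 86.0 RPKM on day 12 to 746 on day 14 and 137 on day 20, WARS (r = 0.946) and CHPT1 (r = 0.942). For NANOG they included ROCK2 (r = 0.975), a kinase that acts on the cytoskeleton, and PRRC2C (r = 0.961), both highest on day 12 at means of 66.1 and 87.2 RPKM. For DNMT3B they were OPA1 (r = 0.965), MELK (r = 0.945) and NUFIP1 (r = 0.933). SALL4 was followed most closely by G2E3 (r = 0.915), PNPT1 (r = 0.876) and NOP56 (r = 0.872), and LIN28B by SAMD4A (r = 0.955), PCCA (r = 0.953) and DBN1 (r = 0.951). POU5F1 had the weakest set, with EAAT3 (r = 0.817), PUS7 (r = 0.785) and CA4 (r = 0.783). Each of these r was between 0.653 and 0.985 over the 12 libraries of days 14 to 20.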

How the data were processed

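The members and gene lists were chosen with earlier results of these data known. The authors had mapped reads to the sheep genome Oar_v3.1, per the submitters' processing notes (no source used here names the aligner or the annotation). The authors deposited, per the file headers, RPKM per library, gene read counts for conceptuses, and their own test as a fold change (a score with a sign) and an FDR p-value. The table holds 25197 features, of which 23 had no identifier and were left out. Exon lengths of 18942 features and mapped reads per library were recovered from RPKM, and 100% of the low values tested were whole within 0.1 read. From these lengths and mapped reads, exon reads were computed. On later days they sum to nearly the deposited counts. Those counts entered the recovery, so this sum and the whole values of later days are largely built in. Counts of day 12 did not enter it.

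Day 12 to day 14 was tested with limma 3.58.1 (trend) on log2(RPKM + 1) of all 17 libraries, over genes at RPKM 1 or more in at least 4. Later days were tested with edgeR 4.0.16 (quasi-likelihood, TMM, filterByExpr) on gene read counts of 12 libraries. Its SE is the log2 change over the root of F. P-values were adjusted by Benjamini-Hochberg over all genes tested, and "rose" or "fell" means an adjusted p under 0.05. Ratios were tested with exact permutation in SciPy 1.17.1. Fits were tested on simulated data. DESeq2 1.42.0, other scalings and filters, a replicate block and left-out libraries were alternatives. All members were named, with up to 4 genes per list and comparison by smallest adjusted p, and the 3 genes most correlated with each member; exceptions are marked, and 1 gene of similar pattern to NANOG is not reported here. No 2 libraries of a day agreed within sampling noise.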

Additional observations from a re-analysis of the deposited data

Results flagged for a closer look

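Among 4 or 5 libraries of a day, a library was marked where its gap to the next was a large share of the day's range, which chance does in about 1 in 20 groups. That rate does not hold where 1 library alone has reads, since such a group is always marked. This applies to SOX2, NANOG and PRDM14 below. For LIN28A this was day 14 replicate 3, at 149.1 RPKM against 105.4 to 110.3, and day 20 replicate 1, at 26.35 RPKM against 1.31 to 1.56. For SOX2 it was day 20 replicate 1, at 0.727 RPKM against 0 in the other 3. The remaining cases rest on 1 read: NANOG at 0.0551 RPKM on day 16 and 0.0643 on day 20, and PRDM14 at 0.0395 on day 20. Day 20 replicate 1 thus held the highest value in 4 of the 6 cases, but all of these except LIN28A are groups with reads in 1 library alone.

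The deposited gene reads of day 12 exceed the exon reads behind the RPKM, which they do not on later days, and no comparison in the report rests on them alone. Over all genes there were 2.08 gene reads per exon read on day 12 (1.84 to 2.24 by library) and 1 later. The value of later days is largely built in, since their deposited counts entered the recovery of exon reads. On day 12 the ratio was 13.6 for LIN28A (9.49 to 19.4 by library) and 9.61 for LIN28B (6.22 to 13.2). It was 3.59 for PRDM14, 2.15 for SALL4, 1.73 for POU5F1, 1.58 for DNMT3B, 1.36 for NANOG and 1.09 for SOX2. For LIN28A that is 1921 gene reads and 141 exon reads over the 5 libraries. Whether unspliced RNA, DNA or other features lie behind them was not tested.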

How the results depend on the processing

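Of the members, 3 rose from day 12 to day 14 in the report, against 1 by edgeR on gene reads, 0 by DESeq2, 1 on exon reads and 1 with rescaled RPKM, and 1 fell, against 3, 3, 4 and 4, and 2 with no filter on low values. The counts over all genes shifted too. In the report 7940 of 12081 rose and 1452 fell. The rises were 5300 of 13918, 5082 of 13918, 5577 of 13528 and 5209 of 11860 in those 4 settings. The falls were 5286, 5640, 4482 and 3810, and 1811 of 19159 with no filter. DESeq2 gave LIN28A no adjusted p in any comparison. By edgeR on gene reads, DESeq2, exon reads and rescaled RPKM, SALL4 was at -0.62, -0.72, -0.74 and -0.62 and LIN28B at -2.20, -2.31, -0.13 and -0.063. DNMT3B was at -0.013, -0.49 and -0.45 by the last 3, and TET2 at -0.063, -0.030 and -0.012. TRIM71 was at -1.57 by edgeR on gene reads and -1.67 by DESeq2.

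On later days 1 member in place of 2 fell from day 14 to day 16 with upper quartile scaling, DESeq2, limma on RPKM and the replicate block, and 2 in place of 4 fell from day 16 to day 20 with the libraries of those days alone. With 1 library left out these counts were 1 to 2 and 2 to 4. From day 14 to day 16, SALL4 was at 0.13 by limma, POU5F1 at 0.024 without day 16 replicate 4 (range -0.78 to 0.024 with 1 left out) and 0.027 without both libraries, and LIN28B at -0.013 with all 17 libraries, with a range of -0.14 to 0.24 when 1 was left out (-0.05 without day 14 replicate 1 and -0.05 without day 16 replicate 1). Upper quartile scaling moved the share of rises among all calls of that step from 51.5% to 63.1%.

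With 0.01 RPKM added, the LIN28A to LIN28B steps were 4.78, -2.24 and -3.80 and passed (exact permutation, adjusted p = 0.043, n = 4 or 5), and the SOX2 to POU5F1 steps were 0.18, 1.33 (which passed, as the sole one of these) and -0.64. With 1 RPKM added, the first SOX2 to POU5F1 step was 0.15. With 1 library left out, that step ran from -0.31 to 0.18 and the last from -0.13 to 1.42. The causes were not tested. Deviations of same-numbered libraries from their day means had r from -0.29 to 0.36. Libraries of unlike number were not compared, so these values cannot show whether the numbers pair libraries. With the replicate block 9320, 5897, 4028 and 8402 genes were called from day 12 to 14, 14 to 16, 16 to 20 and 14 to 20, in place of 9392, 7206, 5428 and 9251. Leaving out both libraries and the changes to correlations were chosen after seeing the data. Reads limit NANOG after day 12, SOX2 and PRDM14.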
